A study of Mus musculus with 12 samples.

Results

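The 10 genes described here encode the inducible parts of the proteasome and the machinery of MHC class I antigen presentation in the mouse heart. They are Psme1 and Psme2 (proteasome activator PA28), Psmb8, Psmb9 and Psmb10 (catalytic subunits of the immunoproteasome), Tap1 and Tap2 (peptide transporter), and B2m, H2-K1 and H2-D1 (class I molecule). They were taken by gene name from a table of 53465 genes, and all 10 were present and passed the filter on low counts that left 16101 genes for testing. The set was chosen by its biology with differences between these groups already known from the same counts, so the fold changes of the 10 genes are given as a description.

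RNA was sequenced from the left ventricles of 12 mice, 3 in each of 4 groups. All carried a floxed Adam17 gene (genotype ADAM17flox/flox in the labels, A17fl/fl in the study, C57BL/6J background), and in the A17α-MHCKO littermates a Cre recombinase driven by the α-MHC promoter removed exon 2 in cardiomyocytes, while other cells keep the gene. ADAM17 is the protease that releases TNF-α and other ligands from the cell surface. The A17fl/fl + DOX and A17α-MHCKO + DOX mice received the anthracycline doxorubicin by intraperitoneal injection, 5 mg/kg on days 0, 7, 14 and 21 and 20 mg/kg in total, the A17fl/fl + NS and A17α-MHCKO + NS mice received normal saline, and hearts were taken 4 weeks after the last injection. The mice were males, 8 weeks old when chosen for the experiment. The comparisons ask how doxorubicin and cardiomyocyte loss of Adam17 change the transcriptome of the heart.

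Total counts were between 15950717 and 21725076 per library. Adam17 itself had 43.6 to 70.9 CPM (counts scaled to a common library size, with TMM factors) in the A17fl/fl libraries and 27.9 to 36.8 CPM in the A17α-MHCKO libraries, without overlap. Ventricular cardiomyocyte markers (7 genes) summed to between 15222 and 40068 CPM, and 4 atrial markers to between 332 and 8048 CPM. A17fl/fl + NS replicate 1 stood apart from the other 11 libraries. It lay at -120 on the first principal component, against -12.9 to 28.4 for the others. Its 5 neutrophil markers summed to 1938 CPM (at most 59.5 CPM elsewhere), its 8 macrophage markers to 2462 CPM (at most 997 CPM elsewhere) and its 5 fibroblast markers to 3418 CPM (at most 1575 CPM elsewhere). Results that rest on this library are given with and without it. In whole tissue, more cells of a kind that expresses a gene and more RNA of that gene per cell cannot be told apart.

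The proteasome is the barrel-shaped protease that degrades ubiquitin-tagged proteins. Interferons, above all interferon-γ, induce Psmb8, Psmb9 and Psmb10, which replace the constitutive subunits Psmb5, Psmb6 and Psmb7 in newly built particles, and the PA28 ring of Psme1 and Psme2, which opens the barrel. The resulting peptides are pumped into the endoplasmic reticulum by the dimer of Tap1 and Tap2 and loaded onto a heavy chain, H2-K1 or H2-D1 in C57BL/6 mice, paired with β2-microglobulin (B2m). Class I molecules carry these peptides to the cell surface, where CD8 T cells read them. Cardiomyocytes at rest have low levels of class I molecules, while endothelial and immune cells of the heart have more.

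Upstream sequence is shown for the genes whose promoters hold a match to one of the motifs by which this pathway is known to be induced, and for the start region that Psmb9 and Tap1 share. RefSeq promoters (build GRCm38.p6, 250 bases before the start searched on both strands) were at hand for 9 of the 10 genes, all but Tap2. The ISRE core, bound by interferon regulatory factors, was searched as GAAANNGAAA, and the GAS element, the interferon-γ-activated sequence, as TTCNNNGAA. The NF-κB site was searched as a consensus pattern of letters too, which is not printed here. Among 32851 promoters of the same length, 2.98% held the ISRE core, 7.02% the GAS element and 7.25% the NF-κB site. Of the 9 genes, 1 held the ISRE core (B2m), 1 the GAS element (Psmb8) and 3 the NF-κB site (B2m, H2-K1 and H2-D1). Each match is a description of the letters and not a binding site. The search took exact patterns only, so the lack of a match does not show that a variant of the motif is absent. In the windows below, 5′ to 3′ in the direction of transcription, capitals mark the matched letters. They are the NF-κB site in H2-K1 (chr17:34000389-34000488, minus strand) and H2-D1 (chr17:35262893-35262992, plus strand), the ISRE core followed by the NF-κB site in B2m (chr2:122147518-122147617, plus strand) and the GAS element in Psmb8 (chr17:34198068-34198167, plus strand).
H2-K1: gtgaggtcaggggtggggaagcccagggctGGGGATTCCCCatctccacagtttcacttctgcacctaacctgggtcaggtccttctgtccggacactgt
H2-D1: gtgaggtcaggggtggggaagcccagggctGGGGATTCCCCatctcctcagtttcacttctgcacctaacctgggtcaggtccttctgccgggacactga
B2m: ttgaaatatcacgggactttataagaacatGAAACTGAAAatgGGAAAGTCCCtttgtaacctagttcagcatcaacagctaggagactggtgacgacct
Psmb8: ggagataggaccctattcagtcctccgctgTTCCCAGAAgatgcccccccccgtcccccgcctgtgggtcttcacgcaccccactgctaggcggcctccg
The H2-K1 and H2-D1 windows were identical at 96 of 100 bases, and in both the NF-κB motif was matched on both strands, with overlapping matches.

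Psmb9 and Tap1 stand head to head in the class II region of the MHC, transcribed from opposite strands with starts 226 bases apart. The 225 bases between the starts (chr17:34187331-34187555, shown on the plus strand, the direction of Tap1) held no match to the 3 motifs. In the 12 libraries the log2 CPM of the 2 genes correlated with a Pearson r of 0.86.
Psmb9 and Tap1: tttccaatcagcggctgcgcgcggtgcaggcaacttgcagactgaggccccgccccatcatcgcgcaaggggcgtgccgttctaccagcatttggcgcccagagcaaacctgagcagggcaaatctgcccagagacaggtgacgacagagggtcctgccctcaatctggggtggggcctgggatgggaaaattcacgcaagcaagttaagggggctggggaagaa

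Levels can be compared between genes only per length, and CPM per kilobase of the principal transcript was used for this. In A17fl/fl + NS hearts B2m had the highest level (456 ± 179 CPM per kb, SD, n = 3), followed by H2-D1 (257 ± 116) and H2-K1 (170 ± 64.3). The proteasome genes were far lower, with Psme1 at 47.3 ± 1.74, Psmb10 at 34.8 ± 12.01, Psme2 at 18.1 ± 4.44, Psmb8 at 17.8 ± 7.90 and Psmb9 at 8.87 ± 2.12 CPM per kb. The transporter genes had 13.7 ± 1.96 (Tap2) and 5.17 ± 3.13 CPM per kb (Tap1, the lowest of the 10). The ranges of 1 SD around the means overlapped for B2m and H2-D1, and for H2-D1 and H2-K1. The same held for Psme1 and Psmb10, Psmb10 and Psmb8, Psme2 and Psmb8, and Psme2 and Tap2. It also held for Psmb8 and Tap2, Psmb8 and Psmb9, and Psmb9 and Tap1. These SDs are between mice, while the genes were measured in the same 3 hearts and can vary together. Their overlap thus does not test whether a gene was above another within a heart.

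Psme1 (ENSMUSG00000022216, chromosome 14) encodes PA28α and varied least between mice. The A17fl/fl + NS hearts had 50.4, 54.2 and 53.1 CPM of it and the A17fl/fl + DOX hearts 82.1, 99.1 and 80.7 CPM. For the A17α-MHCKO genotype the levels were 81.3, 72.1 and 78.7 CPM with saline and 90.95, 87.5 and 102 CPM with doxorubicin. All the other 9 hearts were above each A17fl/fl + NS heart, and the A17α-MHCKO + DOX hearts were above the A17α-MHCKO + NS hearts. With doxorubicin its A17fl/fl mean was 1.66-fold that with saline (log2 difference 0.73 ± 0.12, SE).

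Psme2 (ENSMUSG00000079197, chromosome 14) encodes PA28β, the partner of Psme1 in the same ring. The A17fl/fl + NS hearts had 22.2, 16.04 and 14.0 CPM and the A17fl/fl + DOX hearts 16.4, 24.99 and 20.8 CPM, with overlap. The A17α-MHCKO mice had 18.6, 20.0 and 19.2 CPM after saline and 22.3, 21.3 and 25.02 CPM after doxorubicin, without overlap. Its counts are uncertain, since 51.7% of the 75-base windows of its principal transcript (GENCODE M21) occur exactly in transcripts of other genes, chiefly the near copy Psme2b. The same share was 3.85% for Psme1, 6.90% for H2-D1, 1.55% for H2-K1 and 0 for the other 6 genes.

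**Figure D1:**
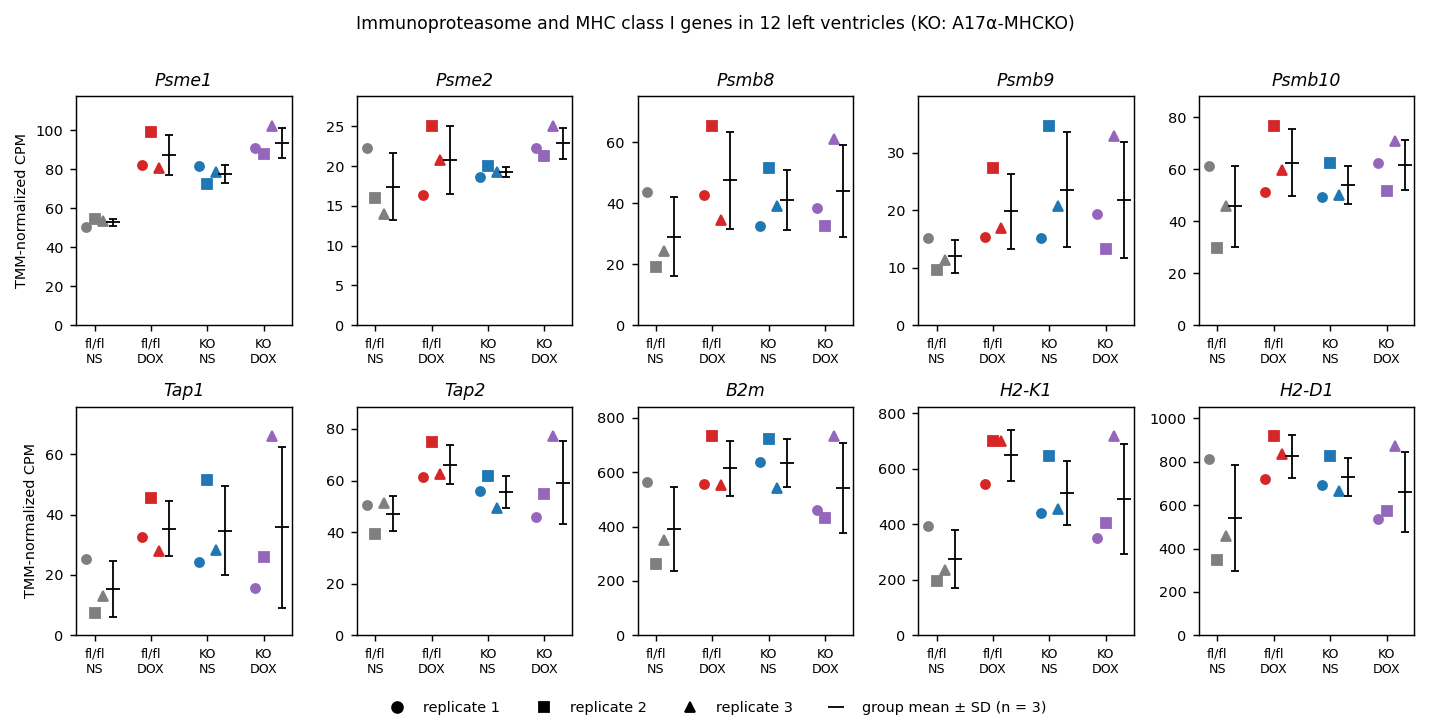
TMM-normalized CPM (vertical axes, from 0) of the 10 genes in 12 left ventricles, with 1 point per mouse, marker shape for the replicate number and the group mean ± SD (n = 3) in black. Psme1 in the A17fl/fl + NS group lies at 50.4 to 54.2 CPM, below all other hearts, while for the other genes replicates 2 and 3 of that group are mostly the lowest and replicate 1 lies among the other groups.

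Psmb8 (ENSMUSG00000024338, chromosome 17), which carries the chymotrypsin-like activity of the immunoproteasome, had 43.5, 19.1 and 24.2 CPM in A17fl/fl + NS and 42.6, 65.2 and 34.5 CPM in A17fl/fl + DOX hearts. In A17α-MHCKO hearts Psmb8 had 32.4, 51.5 and 39.1 CPM after saline and 38.3, 32.6 and 61.1 CPM after doxorubicin. The A17fl/fl + NS group overlapped the others only through its replicate 1, whose level was that of a doxorubicin-treated heart. The other groups overlapped each other as well. Psmb9 (ENSMUSG00000096727, chromosome 17), the inducible counterpart of Psmb6, had 15.1, 9.51 and 11.3 CPM in A17fl/fl + NS hearts and 15.3, 27.3 and 16.8 CPM in A17fl/fl + DOX hearts. It had 15.2, 34.6 and 20.8 CPM in A17α-MHCKO + NS and 19.3, 13.3 and 32.9 CPM in A17α-MHCKO + DOX hearts. The A17fl/fl + NS hearts were thus below the A17fl/fl + DOX and the A17α-MHCKO + NS hearts, by a margin of under 1 CPM at the nearest pair. Psmb10 (ENSMUSG00000031897, chromosome 8), the inducible counterpart of Psmb7, had 61.4, 29.9 and 45.8 CPM in A17fl/fl + NS and 51.1, 76.6 and 59.7 CPM in A17fl/fl + DOX hearts. After saline the A17α-MHCKO hearts had 49.1, 62.5 and 50.2 CPM of Psmb10, and after doxorubicin 62.2, 51.7 and 70.7 CPM. All 4 groups overlapped for this gene.

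Each inducible subunit was set against the constitutive subunit whose place it takes, as a ratio of deposited FPKM within a library, so that depth cancels. Psmb8/Psmb5 was 0.178, 0.122 and 0.132 in A17fl/fl + NS hearts and 0.224, 0.324 and 0.165 in A17fl/fl + DOX hearts, and the group means were 0.144 ± 0.030 and 0.237 ± 0.081. In A17α-MHCKO hearts it was 0.211 ± 0.045 after saline and 0.212 ± 0.097 after doxorubicin. Psmb9/Psmb6 was 0.0602 ± 0.0081 in A17fl/fl + NS, 0.0928 ± 0.028 in A17fl/fl + DOX, 0.124 ± 0.052 in A17α-MHCKO + NS and 0.0971 ± 0.061 in A17α-MHCKO + DOX hearts. Only for this ratio did the A17fl/fl + NS hearts (0.0511 to 0.0666) lie below all A17fl/fl + DOX hearts (0.0758 to 0.125) and all A17α-MHCKO + NS hearts (0.0723 to 0.176). For Psmb10/Psmb7 the means were 0.319 ± 0.070, 0.435 ± 0.075, 0.354 ± 0.060 and 0.387 ± 0.099 in the same order, and the A17fl/fl + DOX hearts (0.381 to 0.521) began just above the highest A17fl/fl + NS heart (0.379). The constitutive subunits themselves were near level between doxorubicin- and saline-treated A17fl/fl hearts, with log2 differences of 0.04 ± 0.18 (Psmb5), 0.10 ± 0.17 (Psmb6) and 0.03 ± 0.14 (Psmb7). The FPKM length of most genes is the sum of separately annotated exons, and with the length of the principal transcript Psmb8/Psmb5 becomes 0.201 ± 0.041 in A17fl/fl + NS hearts, so the ratios compare groups and do not give the make-up of the particle. For Psmb5, 40.0% of the 75-base windows are shared with other genes.

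**Figure D2:**
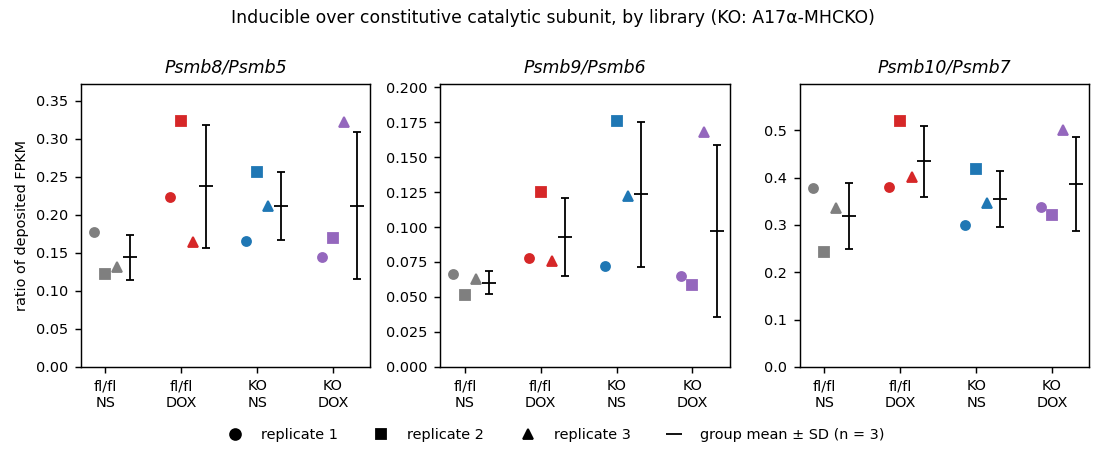
Ratio of deposited FPKM of each inducible catalytic subunit over its constitutive counterpart (vertical axes, from 0) in 12 hearts, 1 point per mouse, with the group mean ± SD (n = 3). The constitutive transcript exceeds the inducible one in every heart, and the highest ratio within each group other than A17fl/fl + NS belongs to 1 heart, replicate 2 or 3, for all 3 pairs.

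Tap1 (ENSMUSG00000037321, chromosome 17) had the widest spread of the 10 genes. Its A17fl/fl + NS hearts had 25.4, 7.30 and 13.1 CPM and its A17fl/fl + DOX hearts 32.7, 45.5 and 27.8 CPM, without overlap. The A17α-MHCKO hearts had 24.3, 51.4 and 28.4 CPM after saline and 15.5, 25.8 and 65.9 CPM after doxorubicin, so that the highest and, outside the A17fl/fl + NS group, the lowest heart of all belong to the same group. The mean of A17fl/fl + DOX hearts was 2.31-fold that of A17fl/fl + NS hearts (log2 difference 1.21 ± 0.55, SE). Tap2 (ENSMUSG00000024339, chromosome 17), the other arm of the transporter, had 50.6, 39.4 and 51.4 CPM in A17fl/fl + NS and 61.2, 74.8 and 62.4 CPM in A17fl/fl + DOX hearts, again without overlap. Its A17α-MHCKO hearts had 55.9, 61.7 and 49.4 CPM after saline and 45.9, 54.7 and 77.1 CPM after doxorubicin, and these overlapped each other.

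B2m (ENSMUSG00000060802, chromosome 2), the light chain of every class I molecule, had 563, 264 and 349 CPM in A17fl/fl + NS and 558, 732 and 555 CPM in A17fl/fl + DOX hearts. In A17α-MHCKO hearts B2m had 639, 721 and 542 CPM after saline and 461, 432 and 731 CPM after doxorubicin. A17fl/fl + NS replicate 1 stood at the level of the treated hearts, and the other A17fl/fl + NS hearts were the lowest of the 12. H2-K1 (ENSMUSG00000061232, chromosome 17), a classical heavy chain, had 393, 197 and 234 CPM in A17fl/fl + NS hearts and 543, 700.2 and 701 CPM in A17fl/fl + DOX hearts. It had 439, 647 and 457 CPM in A17α-MHCKO + NS and 352, 403 and 717 CPM in A17α-MHCKO + DOX hearts. The A17fl/fl + NS hearts were below every A17fl/fl + DOX and every A17α-MHCKO + NS heart. Between doxorubicin- and saline-treated A17fl/fl hearts H2-K1 differed 2.36-fold (log2 difference 1.24 ± 0.32, SE), the largest log2 difference among the 10 genes. H2-D1 (ENSMUSG00000073411, chromosome 17), the other classical heavy chain, had 814, 348 and 459 CPM in A17fl/fl + NS and 721, 917 and 835 CPM in A17fl/fl + DOX hearts. Its A17α-MHCKO hearts had 694, 828 and 666 CPM after saline and 537, 575 and 872 CPM after doxorubicin. Here too the overlap between A17fl/fl + NS and A17fl/fl + DOX hearts came from replicate 1 of the former.

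Between doxorubicin- and saline-treated A17fl/fl hearts all 10 genes were higher after doxorubicin, with a median log2 difference of 0.68 and a range of 0.25 (Psme2) to 1.24 (H2-K1), while the median over all 16101 tested genes was -0.04. By the limits of the study (a log2 difference beyond 1 in either direction, p below 0.05 before adjustment, and FPKM above 1 on average in a compared group) Tap1 and H2-K1 were called higher, 2 of 10, where 0.596% of all tested genes were called higher and 2.22% lower. The groups did not overlap for 5 of 10 (Psme1, Psmb9, Tap1, Tap2 and H2-K1), against 7.15% of all genes in the higher and 6.11% in the lower direction. With edgeR's quasi-likelihood test, adjusted over all genes, 0 of 10 passed an adjusted p of 0.05, as did 0% of all genes, and 5 of 10 had an unadjusted p under 0.05, against 10.7% of all genes. With DESeq2 2 of the 10 passed, Psme1 (adjusted p = 1.72e-05) and H2-K1 (adjusted p = 0.0234), as did 0.938% of all genes, and with limma's voom with library weights 0 of 10 and 0% of all genes. Without A17fl/fl + NS replicate 2 Psme1 also passed with edgeR (adjusted p = 0.0344), where 2.38% of all genes passed. Without A17fl/fl + NS replicate 1 the median was 0.96, and 4 of 10 were called (Psmb8 at 1.12, Tap1 at 1.79, H2-K1 at 1.58 and H2-D1 at 1.03, log2), against 0.597% of all genes called higher. Without replicate 2 or replicate 3 of A17fl/fl + NS, or without replicate 1 or replicate 2 of A17fl/fl + DOX, 1 of 10 was called, and of all genes 1.86%, 0.582%, 0.545% and 0.490% were called higher in the same order.

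In A17α-MHCKO mice the 10 genes differed little between doxorubicin and saline, with a median log2 difference of 0.07 and a range of -0.23 (B2m) to 0.27 (Psme1, SE 0.12). The limits of the study called 0 of 10, with 0.373% of all genes called higher and 0.286% lower. Psme1 and Psme2 did not overlap between the groups, 2 of 10, against 9.16% of all genes higher and 7.79% lower. By edgeR 0 of 10 had an adjusted p under 0.05 (0% of all genes) and 1, Psme1, an unadjusted p under 0.05, against 6.42% of all genes. DESeq2 and voom each passed 0 of 10, and 0.255% and 0.0932% of all genes. The median moved most without A17α-MHCKO + DOX replicate 3, the highest heart of its group for every one of the 10 genes, to -0.30, and without A17α-MHCKO + NS replicate 2, to 0.24. Without the first of these hearts Tap1 moved from 0.04 ± 0.54 to -0.75 ± 0.50 (SE).

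After saline all 10 genes were higher in A17α-MHCKO than in A17fl/fl hearts, with a median log2 difference of 0.53 and a range of 0.15 (Psme2) to 1.19 (Tap1, SE 0.55). The limits of the study called 0 of 10, where 0.671% of all genes were called higher and 2.32% lower. Psme1, Psmb9 and H2-K1 did not overlap between the genotypes, 3 of 10, against 5.52% of all genes higher and 5.34% lower. By edgeR 0 of 10 passed an adjusted p of 0.05 (0.0186% of all genes did) and 4 had an unadjusted p under 0.05, against 10.1% of all genes. DESeq2 passed 1, Psme1 (adjusted p = 0.00230), and 1.08% of all genes, and voom 0 of 10 and 0.00621% of all genes. Without A17fl/fl + NS replicate 1 the median was 0.88, and 4 of 10 were called (Psmb9 at 1.18, Tap1 at 1.77, B2m at 1.05 and H2-K1 at 1.25, log2), against 0.707% of all genes called higher. Without replicate 1 or replicate 3 of A17α-MHCKO + NS the count was 3 or 1, with 0.799% and 0.620% of all genes called higher. This comparison and that of doxorubicin in A17fl/fl mice share the 3 A17fl/fl + NS hearts, so their values are not independent of each other.

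After doxorubicin the genotypes were close, with a median log2 difference of -0.06 between A17α-MHCKO and A17fl/fl hearts and a range of -0.40 (H2-K1, SE 0.31) to 0.14 (Psme2, SE 0.19). The limits of the study called 0 of 10 (0.149% of all genes higher and 0.0559% lower), and the groups overlapped for all 10, while 6.96% of all genes did not overlap in the higher and 7.13% in the lower direction. With edgeR 0 of 10 had an adjusted p under 0.05, against 0.00621% of all genes, and 0 had an unadjusted p under 0.05, against 2.7%. The counts at an adjusted p under 0.05 were 0 with DESeq2 and 0 with voom, each of which passed 0.0186% of all genes. The median was -0.41 without A17α-MHCKO + DOX replicate 3 and 0.17 without A17fl/fl + DOX replicate 2.

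The interaction, the doxorubicin difference of the A17α-MHCKO genotype less that of the A17fl/fl genotype, was below 0 for all 10 genes. Its median was -0.68 and it ran from -0.004 (Psme2) to -1.305 (H2-K1, SE 0.44). Next to H2-K1 the most negative values were Tap1 at -1.17 ± 0.76 and B2m at -0.88 ± 0.40 (SE). By edgeR's test of the interaction 0 of 10 passed an adjusted p of 0.05 (0% of all genes), with H2-K1 at an adjusted p of 0.828, and 2 of 10 had an unadjusted p under 0.05, against 5.99% of all genes. DESeq2 and voom also passed 0 of 10, and 0.130% and 0% of all genes. Without A17fl/fl + NS replicate 1 the median was -1.03, with H2-K1 at -1.65 ± 0.39 (SE, adjusted p = 0.463), and without A17fl/fl + DOX replicate 2 it was -0.45. A difference in the response of the genotypes was thus not shown for any of the 10 genes at these numbers of mice.

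**Figure D3:**
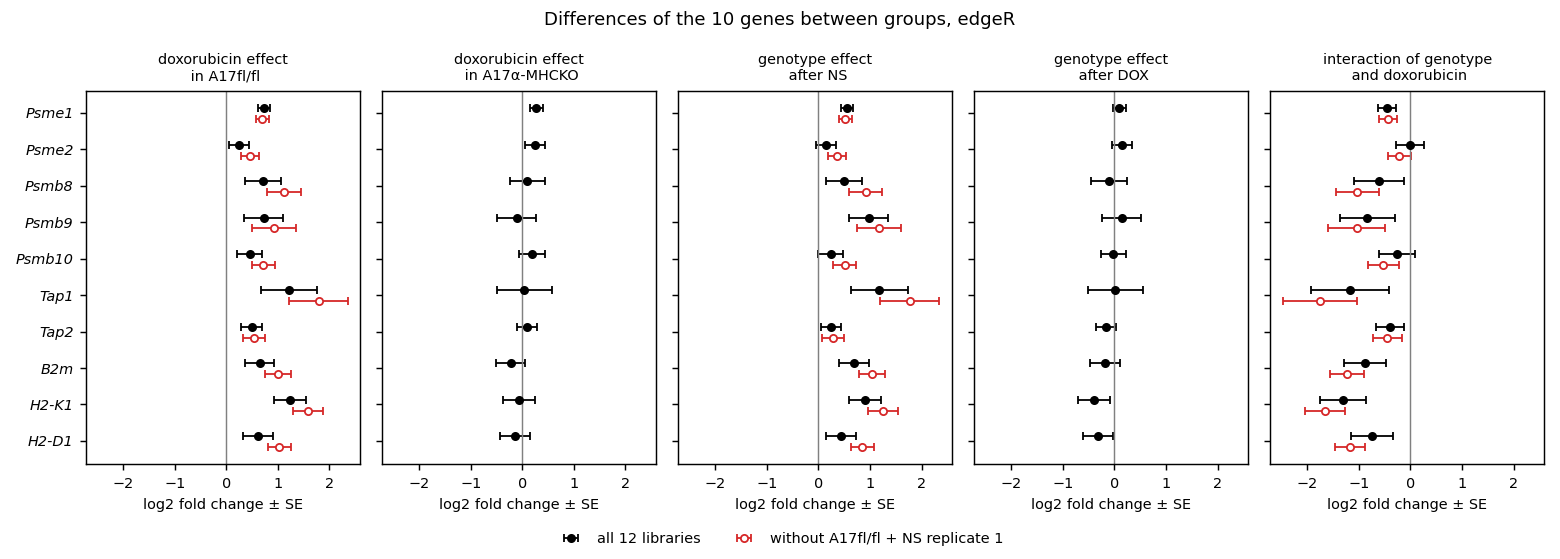
Log2 differences ± SE from edgeR (horizontal axes) of the 10 genes in 5 comparisons, with all 12 libraries (black) and, where the comparison uses it, without A17fl/fl + NS replicate 1 (red, open). All 10 values lie above 0 for doxorubicin in A17fl/fl mice and for genotype after NS, and move further from 0 without that library for every gene but Psme1.

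Across the 12 hearts the 10 genes went up and down together. Over the 45 pairs of genes, Pearson's r of log2 CPM was between 0.50 (Psme1 and H2-D1) and 0.95 (B2m and H2-D1) with a median of 0.81. Over the 11 hearts without A17fl/fl + NS replicate 1 the median was 0.83. These are descriptions, since the libraries fall into groups and the genes share depth and tissue. Each gene was standardized and the mean taken per heart. This mean was lowest in A17fl/fl + NS replicate 2 (-1.88 SD units, lowest of the 12 hearts for 8 of 10 genes) and replicate 3 (-1.22). It was highest in A17α-MHCKO + DOX replicate 3 (1.28, highest for 5 genes), A17fl/fl + DOX replicate 2 (1.20, highest for 4) and A17α-MHCKO + NS replicate 2 (0.71, highest for 1). The remaining 7 hearts, A17fl/fl + NS replicate 1 among them, lay between -0.19 and 0.32. Thus 1 heart with a high mean was found in each group other than A17fl/fl + NS, and the spread within those groups came largely from it.

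Lymphocyte markers were read beside these values. The 13 T and NK cell markers summed to 2.83 to 8.08 CPM in A17fl/fl + NS hearts, 11.6 to 16.2 CPM in A17fl/fl + DOX hearts, 8.14 to 19.7 CPM in A17α-MHCKO + NS hearts and 6.86 to 19.6 CPM in A17α-MHCKO + DOX hearts. The highest sums, 19.7 and 19.6 CPM, belonged to A17α-MHCKO + NS replicate 2 and A17α-MHCKO + DOX replicate 3, which also had the highest means of the 10 genes in their groups, whereas in A17fl/fl + DOX mice replicate 1 had the highest sum. Of the 11 markers tested, 2 were called higher in A17fl/fl + DOX than in A17fl/fl + NS hearts, against 0.596% of all genes, and the median log2 difference was 1.01. Without A17fl/fl + NS replicate 1 the median was 0.61, with 2 of 12 tested called higher, against 0.597% of all genes. Ncr1, a defining receptor of NK cells, was at 0 in all 3 A17fl/fl + NS hearts, while in each other group every marker was found in at least 1 heart. Gzma, a granzyme of cytotoxic cells, averaged 0.103 CPM in A17fl/fl + NS and 1.88 CPM in A17fl/fl + DOX hearts. B cell markers (4 genes) stayed between 0.752 and 3.35 CPM in all hearts, macrophage markers outside A17fl/fl + NS replicate 1 between 642 and 997 CPM, and endothelial markers (5 genes) between 831 and 1243 CPM with the lowest value in A17fl/fl + NS replicate 2. Dendritic cell markers (5 genes), another kind of antigen-presenting cell, summed to 5.37 to 7.02 CPM in A17fl/fl + NS, 7.08 to 10.8 CPM in A17fl/fl + DOX, 7.85 to 9.54 CPM in A17α-MHCKO + NS and 5.92 to 8.32 CPM in A17α-MHCKO + DOX hearts. The A17fl/fl + NS hearts thus lay below the A17fl/fl + DOX and A17α-MHCKO + NS hearts in this sum, by a thin margin to the former (7.02 and 7.08 CPM). Of the 4 dendritic cell markers tested, 0 were called or had an unadjusted p under 0.05 in either comparison. Of all genes 10.7% and 10.1% had such a p in the same order. Ventricular cardiomyocyte markers summed to 15222 to 35532, 37553 to 40068, 24456 to 30745 and 34742 to 37270 CPM in the same order of groups. The part of these cells in the levels of the 10 genes was not tested.

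**Figure D4:**
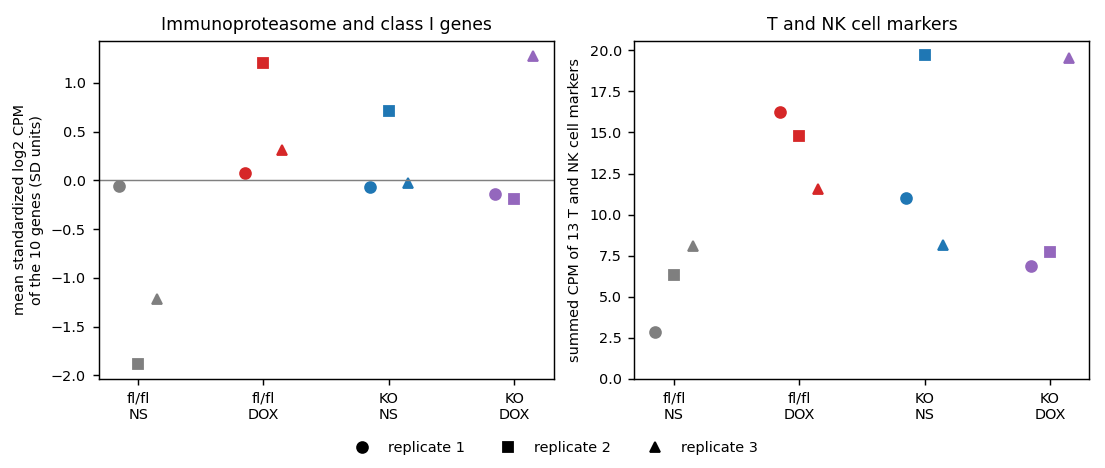
Left, mean standardized log2 CPM of the 10 genes in each heart (SD units), and right, summed CPM of 13 T and NK cell markers (from 0), 1 point per mouse. A17fl/fl + NS replicates 2 and 3 are lowest on the left at -1.88 and -1.22, and A17α-MHCKO + NS replicate 2 and A17α-MHCKO + DOX replicate 3 are highest on the right at 19.7 and 19.6 CPM.

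Genes outside the set were ranked by the likeness of their log2 CPM to the mean of the 10. Over 12 hearts the 5 most alike were H2-T22 (r = 0.95), H2-Q5 (r = 0.95), H2-Q7 (r = 0.94), H2-Q4 (r = 0.93) and H2-M3 (r = 0.92), all heavy chains of the class I family encoded in the MHC. Fragments of such paralogs can be assigned to each other, so this likeness is uncertain. Over 11 hearts without A17fl/fl + NS replicate 1, Cd40 (r = 0.96), a receptor of antigen-presenting cells, and Trim21 (r = 0.95), a cytosolic antibody receptor, joined H2-Q5, H2-Q7 and H2-T22.

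For doxorubicin in A17fl/fl mice the lists of other proteasome genes had medians nearer 0 than the 10 genes. Between doxorubicin- and saline-treated A17fl/fl hearts the median log2 difference was 0.04 for the 3 constitutive catalytic subunits, -0.08 for 11 other subunits of the 20S core and -0.16 for 18 genes of the 19S regulatory particle, the cap that receives ubiquitin-tagged proteins. It was -0.13 for 8 other activators, inhibitors and assembly factors, among them Psmf1 (-0.24 ± 0.13, SE), the inhibitor PI31, and Pomp (-0.26 ± 0.17), the chaperone of core assembly. By the limits of the study 0 of the genes in these 4 lists were called, and 2 of them, Psmd4 (-0.36 ± 0.16) and Psmd7 (-0.36 ± 0.16), had an unadjusted p under 0.05. Of all genes 10.7% had such a p. Without A17fl/fl + NS replicate 1, 0 of the 18 genes of the 19S particle had such a p. Of the 8 other activators, inhibitors and assembly factors 1 had it then, against 10.2% of all genes. Between the genotypes after doxorubicin all 11 core subunits were higher in A17α-MHCKO hearts, by a median of 0.24, with Psma2 at 0.32 ± 0.16 and Psmb1 at 0.28 ± 0.15, and 0 were called or had an unadjusted p under 0.05. Of all genes 0.149% were called higher, 0.0559% were called lower and 2.7% had such a p.

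Of the remaining class I pathway, 10 genes of peptide loading and trimming had a median of -0.04 between doxorubicin- and saline-treated A17fl/fl hearts with 0 called, with Tapbpl, a peptide editor, at 0.38 ± 0.24 and Thop1, a cytosolic peptidase, at -0.24 ± 0.16 (log2, SE). The other class I and class I-like heavy chains had a median of 0.51 over 13 tested genes of 15 listed, with 2 called higher, H2-Q7 (1.37 ± 0.32) and H2-Q6 (1.20 ± 0.38), which are near copies of each other. In this comparison 0.596% of all genes were called higher and 2.22% lower. Nlrc5, the transactivator of class I genes, was 1.97-fold higher in A17fl/fl + DOX than in A17fl/fl + NS hearts (0.98 ± 0.39, adjusted p = 0.432 from edgeR), just under the fold limit, with 10.3 ± 2.82 and 20.2 ± 4.10 CPM (SD, n = 3) and no overlap. Irf1, an interferon regulatory factor that acts on class I promoters, was level at 24.2 ± 5.54 and 23.4 ± 1.37 CPM (-0.05 ± 0.29). In A17α-MHCKO hearts Nlrc5 had 19.1 ± 3.83 CPM after saline and 18.2 ± 11.9 CPM after doxorubicin. Over all 20 genes of transactivation and interferon signaling the median was -0.05, with 1 called higher and 0 lower, against 0.596% and 2.22% of all genes. Without A17fl/fl + NS replicate 1 the median was 0.12 and 4 were called higher, against 0.597%. Between the genotypes after saline 2 were called higher (0.671% of all genes), and 5 without that library (0.707%). For doxorubicin in A17fl/fl mice 3 higher and 3 lower genes had an unadjusted p under 0.05, against 10.7% of all genes in both directions together. Among the lower were Jak2 at -0.76 ± 0.28 and Jak1 at -0.38 ± 0.15, kinases of the interferon receptors. The ligands themselves were near or at 0, with Ifng at no more than 0.314 CPM and Ifnb1 at 0 in all 12 hearts, and were not tested.

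Interferon-inducible genes outside the pathway were read in the same way. Of 16 interferon-inducible GTPases, 4 were called higher between doxorubicin- and saline-treated A17fl/fl hearts, and the median was 0.81, with Gbp4 at 1.35 ± 0.48 and Gbp3 at 1.004 ± 0.38 (log2, SE). Of all tested genes 0.596% were called higher and 2.22% lower in this comparison. Of 16 type I interferon-stimulated genes 0 were called, at a median of 0.34, with Bst2 (tetherin) at 0.70 ± 0.26. For 7 tested genes of MHC class II, which presents peptides to CD4 T cells, 5 were called higher and the median was 1.304, with H2-Ab1 at 1.40 ± 0.44 and its transactivator Ciita at 1.91 ± 0.61. Between the genotypes after saline, 4 of the GTPases (median 1.08), 6 of the type I genes (median 0.74) and 7 of the class II genes (median 1.45) were called higher in A17α-MHCKO hearts. The share of all genes called higher was 0.671%. After doxorubicin the genotypes differed by medians of -0.10, 0.07 and -0.07 with 0 called (0.149% of all genes higher and 0.0559% lower). In A17α-MHCKO mice doxorubicin and saline hearts differed by medians of -0.22, -0.37 and -0.20, and again 0 were called (0.373% of all genes higher and 0.286% lower). Without A17fl/fl + NS replicate 1 the counts between doxorubicin- and saline-treated A17fl/fl hearts were 8 GTPases and 2 class II genes, and the medians 1.10 and 0.88. Of all genes 0.597% were then called higher. Between the genotypes after saline, 7 GTPases (median 1.38), 7 type I genes (median 0.91) and 5 class II genes (median 1.04) were called without that library. The share of all genes called higher there was 0.707%. At an adjusted p under 0.05 from edgeR 0 genes of these lists passed between doxorubicin- and saline-treated A17fl/fl hearts, while 6 GTPases, 3 type I genes and 6 class II genes had an unadjusted p under 0.05. Of all genes 0% passed and 10.7% had an unadjusted p under 0.05.

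**Figure D5:**
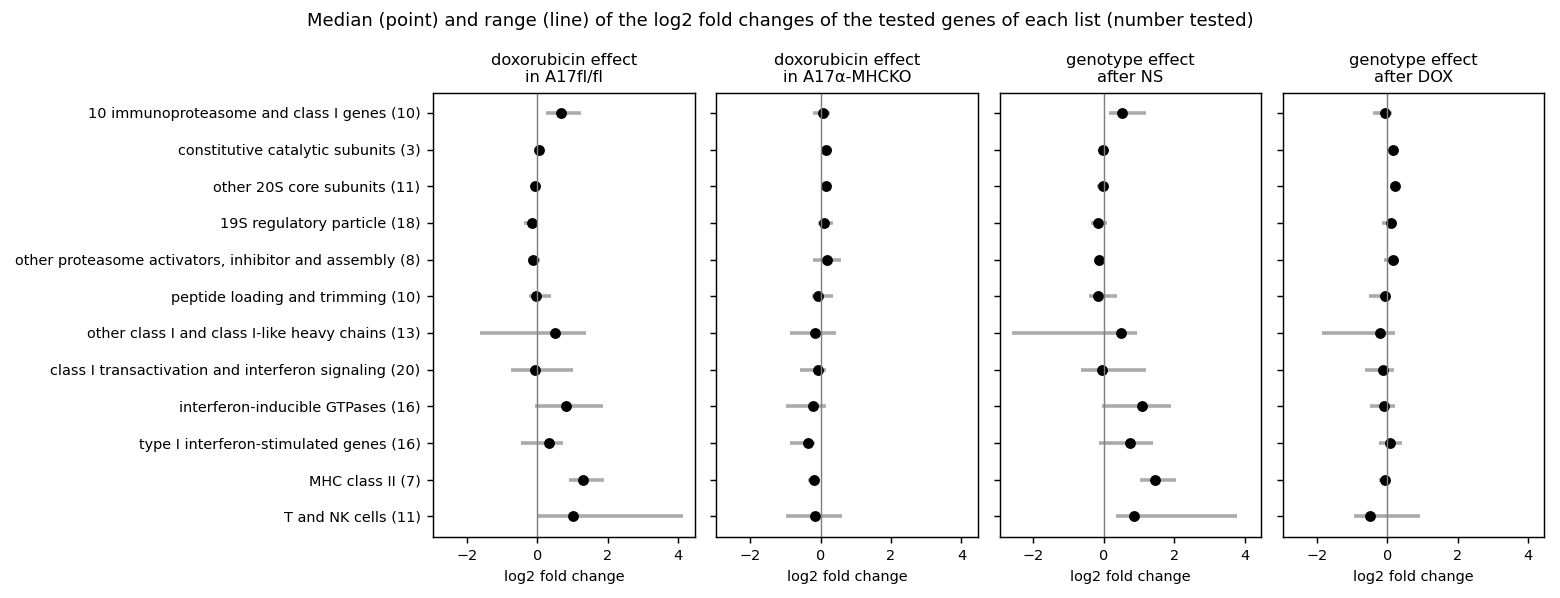
Median (point) and range (line) of the edgeR log2 differences (horizontal axes) of the tested genes in each list, with the number tested, in 4 comparisons. The 10 immunoproteasome and class I genes, other class I heavy chains, GTPases, class II and T and NK cell genes have medians above 0 for doxorubicin in A17fl/fl mice and genotype after NS, the constitutive proteasome lists stay within 0.24 of 0, and after DOX the medians of all these lists but T and NK cells (-0.50) lie within 0.24 of 0.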

How the data were processed

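RNA of 12 mouse left ventricles, 1 library per mouse, was sequenced by the authors with a stranded paired-end mRNA kit. The submitters' processing notes name CASAVA 1.8, HISAT2, SAMtools 1.3.1, edgeR and the build GRCm39, and the methods name StringTie for counting. The annotation release and strand setting are not given in the sources used here. The authors deposited raw counts per gene (fragments, not normalized) and FPKM for each mouse. The length behind the deposited FPKM was the sum of separately annotated exons for 88.4% of 8987 genes with over 200 counts, within 0.1%, as a comparison with GENCODE M21 showed, which distorts levels between genes and leaves comparisons between groups as they are. GENCODE M21 (build GRCm38) holds 53274 of the gene identifiers. No gene coordinates are given because the builds differ, apart from RefSeq promoters of GRCm38.p6.

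Tests on the counts used edgeR 4.0.16 in R 4.3.3 (filterByExpr, TMM, glmQLFit and glmQLFTest, 1 model with 4 group means, two-sided p adjusted by Benjamini-Hochberg over 16101 genes). CPM are TMM-normalized, and log2 CPM used a prior count of 2. The standard error of a log2 difference is its size over the root of the F statistic. Totals were 15950717 to 21725076 counts per library, and counting error weighs most on genes with few counts. The alternatives were DESeq2 1.42.0, limma 3.58.1 voom with library weights, RLE and upper-quartile normalization, 10 or more counts in every library, no filter, the 2 groups alone, a replicate block and each library left out. Only the edgeR fit was tried on simulated counts, for the log2 differences of doxorubicin in A17fl/fl mice, and the alternatives were not.

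The members, lists, tests and alternatives were chosen with earlier results of these data known. Named from other lists were up to 3 genes with the smallest p for doxorubicin in A17fl/fl mice and up to 2 for genotype after DOX, Nlrc5 and Irf1 always, and the 5 genes of most similar pattern. A gene that the rule also names is counted in its list and not reported here. Psmd4 and Psmd7 belong to the first of these, and Gzma and Ncr1 were named after their values were seen. The lists without A17fl/fl + NS replicate 1 and the ratios by principal transcript were added after the data were seen.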

Additional observations from a re-analysis of the deposited data

How the results depend on the processing

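The median log2 difference of the 10 genes moved by less than 0.33, the pooled SD of the gene median between mice, under every alternative other than leaving out a library. With each library left out it lay between 0.46 and 0.96 for doxorubicin in A17fl/fl, -0.30 and 0.24 for doxorubicin in A17α-MHCKO, 0.38 and 0.88 for genotype after NS, -0.41 and 0.17 for genotype after DOX, and -1.03 and -0.45 for the interaction. The count of genes called for doxorubicin in A17fl/fl was 2, 1 with the replicate block, 3 with voom, and 1 to 4 with a library left out. Of all genes 0.596%, 0.646%, 0.584% and 0.490% to 1.86% were called higher in the same order. For genotype after NS it was 0, 2 with upper-quartile normalization, 1 with DESeq2, 2 with voom, 1 with 10 or more counts in every library, 2 with no filter, 1 with the 2 groups alone, and 0 to 4 with a library left out. Here 0.671%, 0.727%, 0.739%, 0.857%, 0.628%, 0.414%, 0.553% and 0.491% to 2.27% of all genes were called higher in the same order. Over all genes, those called for doxorubicin in A17fl/fl numbered 454, and 281 with the replicate block, 184 with voom, 235 with the 2 groups alone and 987 without A17fl/fl + NS replicate 2. For genotype after NS the number was 482, 258 with voom and 1066 without A17fl/fl + NS replicate 2. At an adjusted p under 0.05 the genes were 0 and 3 in these comparisons with edgeR, 151 and 174 with DESeq2, and 391 and 672 without that replicate 2. Replicate numbers did not pair the libraries: deviations of same-numbered libraries correlated between -0.10 and 0.22, 3 of 18 over 0.1, and 6 of 12 libraries correlated best with their own number. No called value changed sign. The cause of these changes was not tested. With 3 mice a group, differences as small as those in A17α-MHCKO mice could not be separated from the spread.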
